A study of Sorghum bicolor with 8 samples.

Results

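The genes described here are the 171 genes of sorghum prop roots whose transcript level was at least doubled in plants grown in elevated CO2, out of 34129 genes in the deposited table. They were chosen by their measured levels in both groups: at least 5 FPKM in the elevated group, at least 1 FPKM in the ambient group, and a log2 change of at least 1 after adding 1 FPKM to both values. FPKM is a transcript level that is corrected for transcript length and sequencing depth. Because the rule used both group values, the size and direction of the change are given below as a description, and nothing is tested with them.

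RNA sequencing was done on prop roots of Sorghum bicolor cultivar BRS330. The elevated group had 4 libraries from plants in air with 800 µmol per mol CO2, and the ambient group had 4 libraries from plants in air with 400 µmol per mol. All plants of both groups were also short of water: they received 1.5 L per day up to 60 days after planting and 0.45 L per day, 70% less, for the next 30 days. The comparison therefore concerns CO2 under water deficit, which both groups share. The table gives 1 FPKM value per gene and group, pooled by the authors over the group's libraries, so no value of a single library, no SD and no depth per library can be given. The labels do not tell how many plants each library stands for, so the authors' p-values may measure technical spread only. Root tissue was sequenced in bulk, so more cells of a type and more RNA per cell cannot be told apart.

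Prop roots are roots that leave the stem above the ground. In sorghum they can be green before they reach the soil, and once in it they anchor the plant and take up water. As general background, plants in CO2-enriched air tend to narrow their stomata and lose less water per unit of carbon fixed, so soil water can last longer. The comparison asks which transcripts of the prop root differ with CO2 when water is scarce. The files pair the gene identifiers with no product name. By position, 137 of the 171 genes could be paired with 1 RefSeq gene of the assembly Sorghum_bicolor_NCBIv3, and all 137 carry a locus number as their only name. RefSeq classes 133 of these as protein coding, 2 as long non-coding RNA, 1 as a pseudogene and 1 as a transcribed pseudogene. No function is therefore given for any gene, the tissue label could not be checked against root markers, and the genes are described by level, change, locus and neighbours.

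All 171 genes had been tested by the authors, whose deposited table calls 154 of them higher in elevated CO2 at a q-value under 0.05. Among all 16280 tested genes 2.42% were called higher and 9.04% lower; nothing is read from the members' count beside these shares, because the rule used the same contrast. At a q-value under 0.01 the authors' deposited table calls 120 of the 171 members higher. Among all 16280 tested genes, 185 (1.14%) were called higher at this limit. An unadjusted p under 0.05 was listed for 162 members. Among all tested genes, 949 (5.83%) were higher with such a p. The smallest p-value in the authors' deposited table, 5e-05, was shared by 80 of the 171, so these cannot be ranked by p. The 154 made up 39.1% of the 394 genes called higher. Of the other 240 called genes, 219 were below the required change of 1 on the log2 scale after adding 1 FPKM, 18 were under 1 FPKM in ambient CO2 and 40 were under 5 FPKM in elevated CO2, with some in more than one of these classes.

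Most of the 171 genes were moderately expressed and changed by little more than the rule asks. The median level was 21.6 FPKM in elevated CO2 (quartiles 9.88 and 56.6) and 8.76 FPKM in ambient CO2 (quartiles 3.65 and 22.7). The median ratio of the 2 values was 2.53-fold (quartiles 2.25 and 2.92). On the log2 scale after adding 1 FPKM, 94 genes lay below 1.2, 21 reached 1.5 and 3 reached 2. Added up, the 171 genes came to 7172 FPKM in elevated CO2 and 2936 FPKM in ambient CO2, which is 1.24% and 0.450% of the FPKM summed over all genes in the same group. The same rule with the groups exchanged finds 930 genes at least halved in elevated CO2, which came to 25976 FPKM (4.48% of the sum) in elevated CO2 and 68840 FPKM (10.5%) in ambient CO2. Both counts depend on the scaling: the FPKM of all genes summed to 579715 in elevated CO2 and 652743 in ambient CO2, and rescaling the elevated values to the ambient sum gave 298 genes at least doubled and 724 at least halved.

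**Figure D1:**
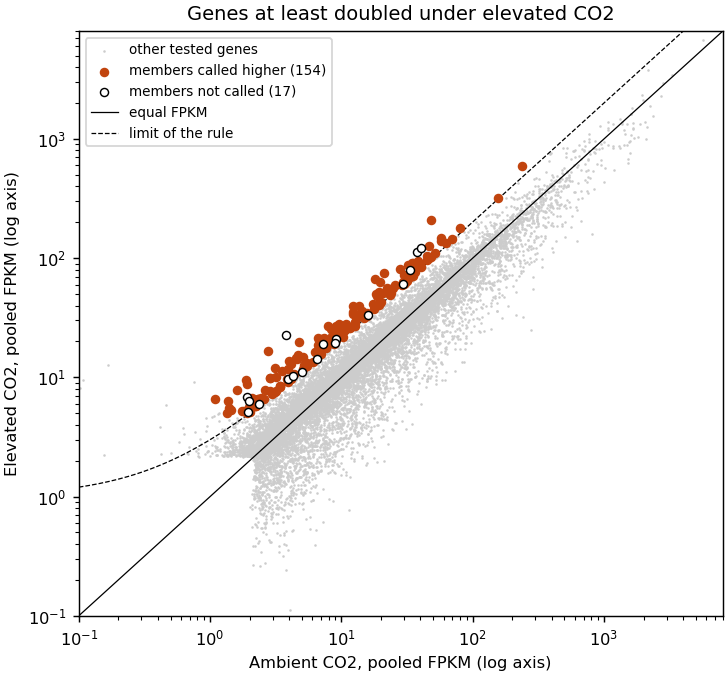
Pooled FPKM in elevated CO2 (vertical, log axis) against ambient CO2 (horizontal, log axis) for tested genes with more than 0.1 FPKM in both groups. Filled points are the 154 members called higher by the authors, open points the 17 not called and grey points the other tested genes. The broken line is the limit of the rule, and members lie above it because the rule requires this. They span 5.01 to 590 FPKM in elevated CO2, with ratios up to 6.04-fold.

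The most abundant of these transcripts was Sobic.004G036200 (chromosome 4, 2915210 to 2918622; RefSeq LOC110434364), with 590 FPKM in elevated CO2 and 235 FPKM in ambient CO2. Next came Sobic.005G042000 (chromosome 5, 3876057 to 3877378; LOC8070647), with 316 FPKM in elevated CO2 and 156 FPKM in ambient CO2, a ratio of 2.03-fold that was the lowest of all members. Sobic.009G234600 (chromosome 9, 57389228 to 57390570; LOC8074608) reached 210 FPKM in elevated CO2, against 47.9 FPKM in ambient CO2, and was in the top 3 by level and by change. It thus joins a high level to a large ratio, 4.39-fold, whereas the 2 genes above it in level had ratios of 2.51-fold and 2.03-fold. Sobic.005G231500 had 178 FPKM in elevated CO2 and 80.6 FPKM in ambient CO2, and Sobic.001G177000 had 147 FPKM in elevated CO2 and 57.5 FPKM in ambient CO2. The remaining 5 of the 10 most abundant genes were Sobic.001G336500, Sobic.007G002000, Sobic.003G002300, Sobic.005G010200 and Sobic.006G235900, with 121 to 144 FPKM in elevated CO2 and 40.3 to 70.1 FPKM in ambient CO2. Sobic.006G235900 was the only one of the 10 that the authors' deposited table does not call (q = 0.255). Together these 10 held 29.3% of the members' summed FPKM in elevated CO2. By level in elevated CO2, the median ratio was 2.75-fold in the 44 genes from 5 to 10 FPKM, 2.60-fold in the 34 from 10 to 20 FPKM and 2.40-fold in the 44 from 20 to 50 FPKM. It was 2.25-fold in the 34 genes from 50 to 100 FPKM and 2.31-fold in the 15 at 100 FPKM or more. Adding 1 FPKM to both values makes the rule ask for a larger plain ratio at low levels; on the rule's own log2 scale the 5 medians lay between 1.14 and 1.26.

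The 12 genes with the largest change spanned low to high levels. First by the rule's log2 value was Sobic.006G190500 (chromosome 6, 54504529 to 54504726), with 22.9 FPKM in elevated CO2 and 3.78 FPKM in ambient CO2, a ratio of 6.04-fold. The authors' deposited table does not call it higher (q = 0.110), and its locus spans 198 bp. The next gene, Sobic.002G403600 (chromosome 2, 75370932 to 75374125; LOC110432567), had 16.6 FPKM in elevated CO2 and 2.76 FPKM in ambient CO2, or 6.01-fold (q = 0.00112 in the authors' deposited table). Sobic.001G245300 (chromosome 1, 25618174 to 25620811; LOC8059457) had nearly the same ratio, 6.02-fold, at 6.59 FPKM in elevated CO2 and 1.09 FPKM in ambient CO2, the lowest ambient value of any member. These 3 genes were the only members with a ratio above 6-fold. Sobic.003G349100 followed with 9.56 FPKM in elevated CO2 and 1.88 FPKM in ambient CO2 (5.10-fold), and Sobic.005G130400 with 19.9 FPKM in elevated CO2 and 4.72 FPKM in ambient CO2 (4.22-fold). Sobic.004G345900 and Sobic.009G197000 combined a large change with a high level: Sobic.004G345900 had 66.3 FPKM in elevated CO2 and 18.1 FPKM in ambient CO2, and Sobic.009G197000 had 74.7 FPKM in elevated CO2 and 21.1 FPKM in ambient CO2. The other 4 of these 12 genes besides Sobic.009G234600 were Sobic.002G125200, Sobic.004G321000, Sobic.010G253500 and Sobic.007G213700, with ratios from 3.43- to 4.92-fold. RefSeq classes the gene paired with Sobic.010G253500 (LOC8065578) as a pseudogene; it was at 12.04 FPKM in elevated CO2 and 3.12 FPKM in ambient CO2, and its span of 16069 bp was the longest of all members.

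**Figure D2:**
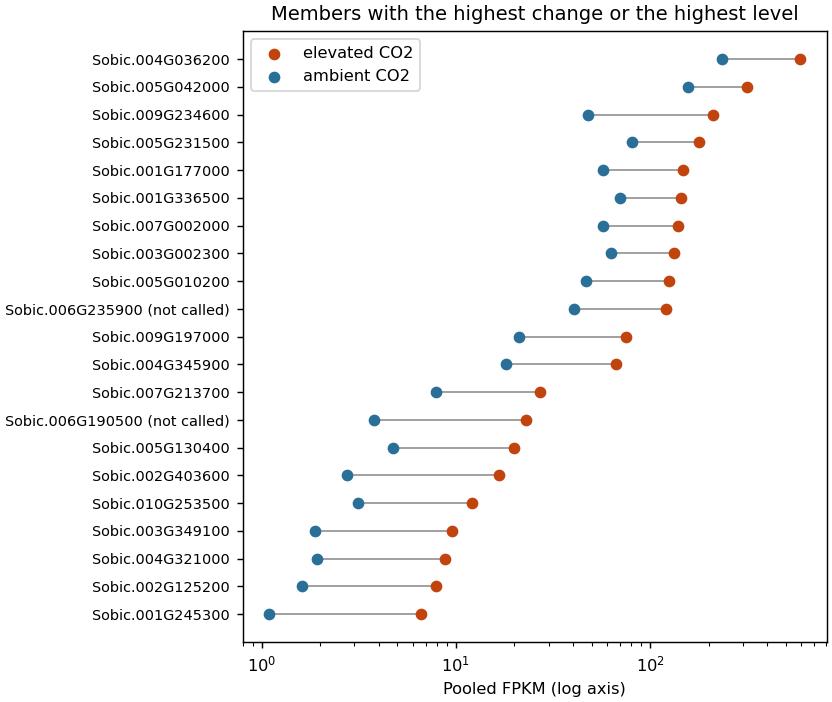
Pooled FPKM (log axis) of the 21 members that were among the 12 with the largest change or the 10 with the highest level, with the elevated group in orange and the ambient group in blue. Ratios are widest among genes of low ambient level and in Sobic.009G234600, and 2 of the 21 genes are not called in the authors' deposited table.

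The 17 members that did not pass the authors' test were not only those with the smallest ratios. On the log2 scale after adding 1 FPKM, the median was 1.11 in these 17 genes and 1.17 in the 154 called genes. The median ratio of the 17 was 2.46-fold, against 2.53-fold in the 154 called genes. Their q-values in the authors' deposited table ran from 0.0553 to 0.663. Of the 17, 4 have a locus under 300 bp and 6 share their deposited locus with an overlapping gene, while 7 have neither feature. Of the 154 called genes 0 have a locus under 300 bp, and 4 share a locus. Over all genes, 34 that were tested have a locus under 300 bp, and the authors' deposited table, made with Cuffdiff, calls 0 of them in either direction, with an unadjusted p under 0.05 for 5. These 17 genes and their partners were singled out after their values were seen.

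The 4 shortest loci included the member with the largest change and 1 of the 10 most abundant. How well FPKM measures the level of loci this short was not tested. Sobic.006G235900 (132 bp; chromosome 6, 57764954 to 57765085) had 121 FPKM in elevated CO2 and 40.3 FPKM in ambient CO2. It lies inside a RefSeq gene, LOC8068460, that also covers its neighbour Sobic.006G235800, which rose to 101 FPKM in elevated CO2, against 53.1 FPKM in ambient CO2 (1.91-fold, q = 0.00284 in the authors' deposited table). The change of the longer gene falls just under the rule's limit (0.92 on the log2 scale after adding 1 FPKM), and both values point the same way. Sobic.004G219200 (171 bp) had 6.88 FPKM in elevated CO2 and 1.92 FPKM in ambient CO2. It too lies inside a RefSeq gene, LOC8066159, which also covers Sobic.004G219300; that gene had 28.9 FPKM in elevated CO2 and 34.7 FPKM in ambient CO2, so the 2 identifiers differ in direction. Sobic.006G190500, with the largest change of all, lies inside LOC110436534, a RefSeq gene of 726 bp. The short locus Sobic.009G001700 (218 bp) had 21.0 FPKM in elevated CO2 and 9.16 FPKM in ambient CO2 and is described with its neighbours below.

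Of the 171 members, 10 (5.85%) share their locus with an overlapping gene, against 11.2% of the tested genes at the levels the rule requires and 11.6% of all tested genes; 6 of these 10 are among the 17 uncalled members. Sobic.006G231332 had 113 FPKM in elevated CO2 and 37.5 FPKM in ambient CO2 (3.01-fold), with q = 0.663 in the authors' deposited table. It shares its locus with Sobic.006G231200, at 231 FPKM in elevated CO2 and 152 FPKM in ambient CO2, and with Sobic.006G231266, at 5.62 FPKM in elevated CO2 and 5.01 FPKM in ambient CO2. Sobic.002G033900 (6.31 FPKM in elevated CO2, 1.97 FPKM in ambient CO2) overlaps Sobic.002G033800, which had 25.5 FPKM in elevated CO2 and 13.1 FPKM in ambient CO2 and was not called either. In a pair on chromosome 5 the values ran in opposite directions: Sobic.005G101300 had 9.72 FPKM in elevated CO2 and 3.95 FPKM in ambient CO2, while Sobic.005G101400 had 4.44 FPKM in elevated CO2 and 9.26 FPKM in ambient CO2. Sobic.007G161500 was likewise higher in elevated CO2 (19.1 FPKM in elevated CO2, 7.20 FPKM in ambient CO2), and its overlapping gene Sobic.007G161400 was lower (21.4 FPKM in elevated CO2, 29.2 FPKM in ambient CO2). The authors' deposited table calls no gene of these 4 loci. Of the 12 genes that share a locus with a member, 0 are members themselves, 6 were tested by the authors and 0 were called higher. The sources used here do not say how fragments were divided between overlapping genes, so the levels of these 10 members are uncertain.

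The loci of the doubled genes were short. Their median span was 1962 bp (quartiles 1348 and 3453), against 4162 bp (quartiles 2696 and 6261) in the 12455 tested genes with at least 5 FPKM in elevated CO2 and 1 FPKM in ambient CO2, the levels the rule requires. The genes at least halved had a median span of 2606.5 bp, between these values. They were chosen with the level limits exchanged between the groups, and no set of tested genes at those levels was compared. Loci under 2 kb made up 52.0% of the doubled genes, 37.0% of the halved genes and 14.5% of the 12455. The share of the 12455 genes that were members was 14.3% (4 of 28) for loci under 300 bp, none of the 4 called, and 3.44% (16 of 465) from 300 to 1000 bp. It was 5.24% (69 of 1317) from 1000 to 2000 bp, above the class of shorter loci next to it, and 1.248% (51 of 4088) from 2000 to 4000 bp. It was 0.517% (24 of 4645) from 4000 to 8000 bp and 0.366% (7 of 1912) above that. Without genes that share a locus the median was 1917 bp for 161 members and 3878 bp for 11065 genes at the required levels. A span is the distance from the start to the end of the deposited locus, and transcript lengths were not compared. Read depth is unknown, so the part of counting noise in the changes of genes with short loci was not tested.

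**Figure D3:**
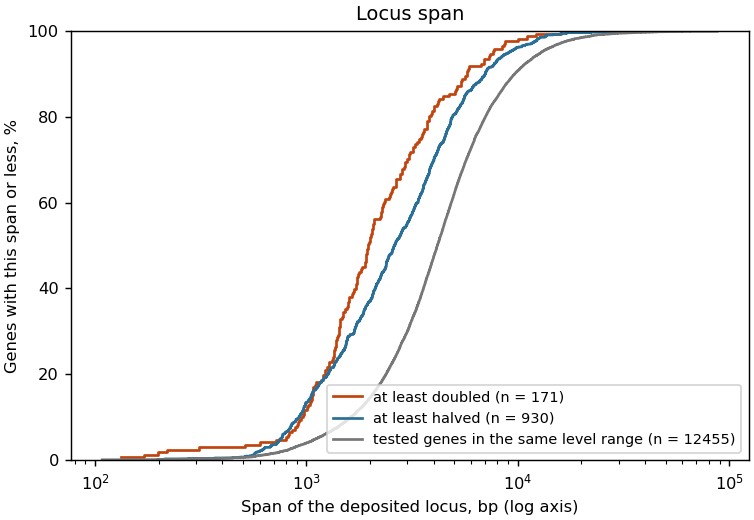
Cumulative share of genes (%) by span of the deposited locus (bp, log axis) for the genes at least doubled, the genes at least halved and the tested genes at the levels the rule requires. The curve of the doubled genes lies to the left, with medians of 1962, 2606.5 and 4162 bp in that order.

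Of the 171 genes, 16 lay directly next to another member in the order of loci (9.36%). By comparison, 1.04% of the 16109 tested genes outside the set lay directly next to a member. The halved genes, which are more numerous, had 188 of 930 next to another halved gene (20.2%). The share of other genes next to a halved gene was not computed. The 20.2% therefore cannot be compared with the 9.36% as a measure of clustering. With up to 3 genes between members there were 10 such groups holding 24 genes, of which 4 groups were on chromosome 2. Whether members of a group are copies of each other was not tested, and reads shared between copies would make their values dependent.

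The largest group lay on chromosome 6, where 5 of 7 annotated genes within 19.98 kb (57422957 to 57442937) were members. Sobic.006G230700 rose to 50.6 FPKM in elevated CO2, against 24.0 FPKM in ambient CO2. Its neighbour Sobic.006G230800 had 79.8 FPKM in elevated CO2 and 33.0 FPKM in ambient CO2 and just missed the call (q = 0.0583 in the authors' deposited table). Sobic.006G230900 rose to 18.1 FPKM, against 6.77 FPKM in ambient CO2, and Sobic.006G231100 to 49.2 FPKM, against 23.4 FPKM in ambient CO2. The fifth member is Sobic.006G231332, one of 3 genes with a common locus. Ratios of the 5 members, for which the rule sets a minimum, ran from 2.10- to 3.01-fold. Their levels in elevated CO2 ran from 18.1 to 113 FPKM. Sobic.006G231200 and Sobic.006G231266, which lie in the group but are not members, had ratios of 1.52- and 1.12-fold. On its outer side the group is followed by Sobic.006G231400, with 1.23 FPKM in elevated CO2 and 1.22 FPKM in ambient CO2. Before it lies Sobic.006G230600, listed at 4.50 FPKM in elevated CO2 and at 0 in ambient CO2, which the authors did not test.

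On chromosome 7 a group of 3 members lay within 6.11 kb (432240 to 438347). Sobic.007G004600 rose to 12.8 FPKM in elevated CO2, against 4.15 FPKM in ambient CO2, and Sobic.007G004800 to 26.5 FPKM, against 9.03 FPKM in ambient CO2. Between them Sobic.007G004700 had 5.94 FPKM in elevated CO2 and 2.35 FPKM in ambient CO2 (q = 0.0656 in the authors' deposited table), and Sobic.007G004750 was listed at 0 in both groups. The gene before the group, Sobic.007G004500, had 19.3 FPKM in elevated CO2 and 23.4 FPKM in ambient CO2, so the higher values ended at the group's edge on that side. A second pair on the same chromosome consisted of Sobic.007G001900, which rose to 20.5 FPKM in elevated CO2, against 8.76 FPKM in ambient CO2, and Sobic.007G002000, which rose to 138 FPKM, against 57.1 FPKM in ambient CO2. Their ratios were 2.34- and 2.42-fold. The rule sets a minimum for these, and the quartiles over all members were 2.25- and 2.92-fold, so nothing is read from their likeness. Both outer neighbours were below 1 FPKM in both groups.

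At the start of chromosome 9 (170030 to 173585) Sobic.009G001700 was followed by Sobic.009G001800, which rose to 31.2 FPKM in elevated CO2, against 14.8 FPKM in ambient CO2. The gene before them, Sobic.009G001600, is no member because it is listed at 0 in ambient CO2; in elevated CO2 it had 7.67 FPKM and the authors' deposited table calls it higher (q = 0.00112). Counting it, 3 consecutive genes had the higher value in elevated CO2, which the rule requires of the members among them. The middle one, Sobic.009G001700, was not called (q = 0.437 in the authors' deposited table). A further pair on chromosome 9, Sobic.009G072100 and Sobic.009G072200, lay 105 kb from end to end (8705342 to 8810778), the widest group, with 35.3 and 13.4 FPKM in elevated CO2 and 12.4 and 6.08 FPKM in ambient CO2.

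On chromosome 2, Sobic.002G125000 rose to 9.89 FPKM in elevated CO2, against 2.86 FPKM in ambient CO2, and Sobic.002G125200 to 7.90 FPKM, against 1.61 FPKM in ambient CO2. The gene after them, Sobic.002G125300, had 4.53 FPKM in elevated CO2 and 0.929 FPKM in ambient CO2, a like ratio (4.88-fold) at a level under the limits of the rule, and it was not called (q = 0.0704 in the authors' deposited table). These 3 loci have spans of 1448, 1429 and 1402 bp, and Sobic.002G125100, listed at 0 in both groups, lies among them. Another pair on this chromosome was Sobic.002G225100, which rose to 15.6 FPKM in elevated CO2, against 6.65 FPKM in ambient CO2, and Sobic.002G225200, which rose to 6.30 FPKM, against 1.38 FPKM in ambient CO2. In the pair Sobic.002G376800 and Sobic.002G376900 the second gene rose (18.8 FPKM in elevated CO2, 6.68 FPKM in ambient CO2) and the first gene just missed the call (14.2 FPKM in elevated CO2, 6.52 FPKM in ambient CO2, q = 0.0553 in the authors' deposited table).

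**Figure D4:**
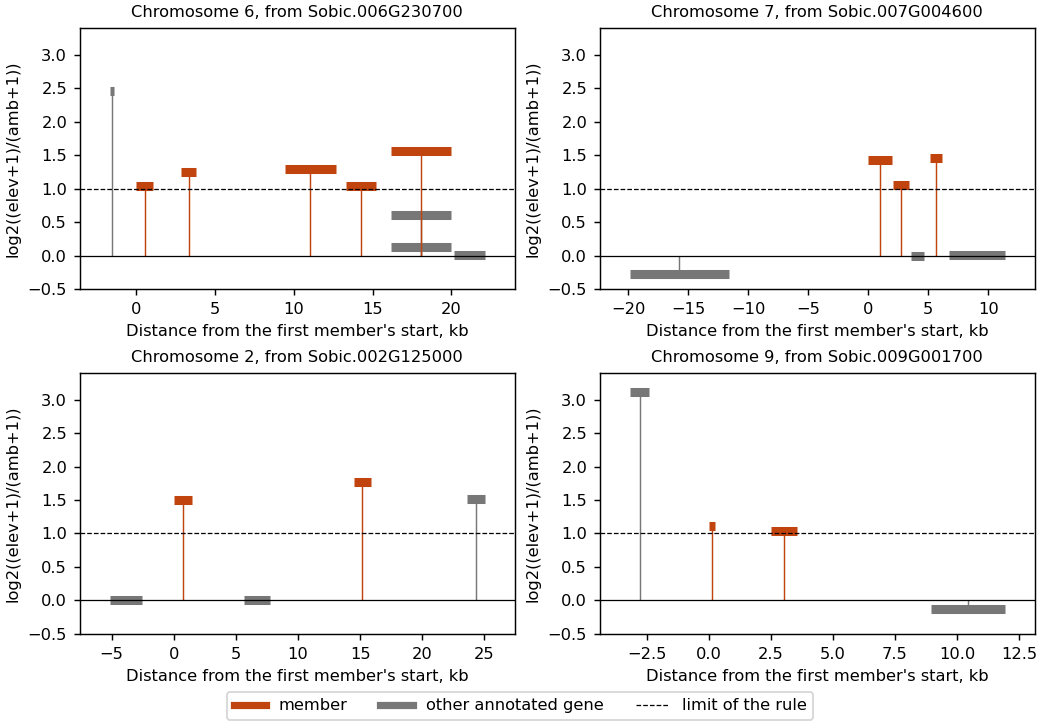
Log2 change after adding 1 FPKM to both groups (vertical) along 4 groups of neighbouring genes, against the distance from the first member's start (kb). Thick lines are deposited loci, orange for members and grey for other annotated genes, and the broken line is the limit of 1; several loci next to members lie near 0, while Sobic.009G001600 and Sobic.006G230600, both listed at 0 in ambient CO2, stand above the members.

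Directly beside a member lay 168 tested genes that are not members themselves. The rule also decides which genes count as outside the set, so their values are given as a description. Of the 168, 104 (61.9%) had the higher value in elevated CO2, against 46.1% of all 16109 tested genes outside the set. Their median log2 ratio in the authors' deposited table was 0.10, against -0.03 for the 16109. The authors' deposited table calls 8 of the 168 higher (4.76%, against 1.49% of the 16109) and 6 lower (3.57%, against 9.13%). Among the 8 were Sobic.002G405900, with 21.4 FPKM in elevated CO2 and 10.5 FPKM in ambient CO2, and Sobic.006G158800, with 7.03 FPKM in elevated CO2 and 3.07 FPKM in ambient CO2. Sobic.006G194200, with 9.70 FPKM in elevated CO2 and 4.47 FPKM in ambient CO2, was another of the 8, and all 3 genes lay just under the limit of the rule, at 0.96 to 0.98 on the log2 scale after adding 1 FPKM. The other 5 were Sobic.006G235800 and Sobic.009G001600, described above, and Sobic.003G209900, Sobic.003G404100 and Sobic.006G073400, with ratios from 1.67- to 1.83-fold. Of the 168, 7 overlap a member or lie with one in the same RefSeq gene. Among the other 161, 99 (61.5%) had the higher value in elevated CO2, 7 were called higher and 6 lower in the authors' deposited table. No test of these shares was made.

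Members lay on all 10 chromosomes. Relative to the number of tested genes they were most frequent on chromosome 5 (12 of 778, 1.54%, 95% Wilson interval 0.884 to 2.68%) and chromosome 2 (31 of 2056, 1.51%, 1.06 to 2.13%). They were least frequent on chromosome 8 (5 of 776, 0.644%, 0.276 to 1.50%) and chromosome 4 (14 of 1967, 0.712%, 0.424 to 1.19%). The share over all tested genes was 1.05%, which only the interval of chromosome 2 leaves out, by a small margin. These intervals cover counting error over genes only, and neighbouring genes are not independent. Of the 171 genes 75 (43.9%) lay within 5 Mb of the first or last locus of their chromosome, against 35.1% of the tested genes at the required levels and 31.0% of the halved genes. Identifiers with intermediate numbers, which do not end in 00, were carried by 2 members (1.17%), Sobic.006G194150 and Sobic.006G231332, against 4.29% of the tested genes at the required levels.

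**Figure D5:**
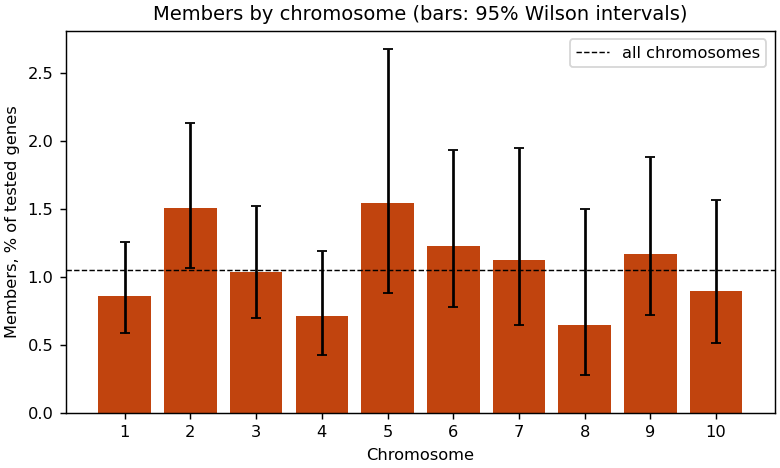
Members as a percentage of the tested genes of each chromosome, with 95% Wilson intervals as error bars and the share over all tested genes as a broken line. Shares range from 0.644% on chromosome 8 to 1.54% on chromosome 5, and the intervals of all chromosomes but the second include the share of 1.05%.

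Many genes lay close to the limits of the rule. On the log2 scale, 58 members were less than 0.1 above the limit of 1, and 76 genes at the required levels were less than 0.1 below it. The nearest on the inside were Sobic.004G112100, Sobic.002G233800 and Sobic.003G034500, in that order with 63.9, 70.9 and 61.0 FPKM in elevated CO2 and 31.4, 34.9 and 29.9 FPKM in ambient CO2. Just outside were Sobic.003G332700, Sobic.002G329600 and Sobic.005G131400, in that order with 17.7, 67.1 and 48.7 FPKM in elevated CO2 and 8.35, 33.1 and 23.9 FPKM in ambient CO2. All 6 are called higher in the authors' deposited table. The limit of 1 FPKM in ambient CO2 alone kept out 7 genes. The nearest of these were Sobic.001G147500, Sobic.001G472000 and Sobic.002G211700, in that order with 9.19, 5.87 and 12.7 FPKM in elevated CO2 and 0.754, 0.464 and 0.166 FPKM in ambient CO2, of which the authors' deposited table calls the first. On the inside of this limit the nearest were Sobic.001G245300, Sobic.008G034300 and Sobic.002G225200, at 1.09 to 1.38 FPKM in ambient CO2. The limit of 5 FPKM in elevated CO2 alone kept out 13 genes, with Sobic.001G043000 at 4.98 FPKM, Sobic.002G365700 at 4.88 FPKM and Sobic.007G224400 at 4.75 FPKM nearest to it. Nearest on its inside were Sobic.008G034300, Sobic.003G082900 and Sobic.002G406000, at 5.01 to 5.15 FPKM in elevated CO2.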

How the data were processed

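Per the submitters' processing notes, reads were processed with Trimmomatic 0.36, HISAT2, Cufflinks 2.2.1 and Cuffdiff; settings and genome build are not given in the sources used here. Libraries were made from total RNA of 100 mg of tissue with a stranded mRNA kit, per the labels' protocols. The authors deposited 1 FPKM value per gene and group, with log2 ratios, a test statistic (a score) and p-values and q-values of their own comparison. Values per library and depth are unknown here, so no test was run and each call is the authors' deposited q-value under 0.05.

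Members and gene sets were chosen with earlier results of these data known. Members were found by the rule and adjacency from the order of loci (Python 3.11.15, pandas 2.3.3). The code was tested on simulated data in which no gene lay near the limit of the rule, so such genes were not covered. Named genes were the 12 members with the largest change, the 10 with the highest elevated FPKM, all adjacent members, those with a RefSeq symbol other than a locus number (0 genes), and the 3 genes on either side of each limit. Genes were paired with RefSeq where loci overlapped by at least 0.5 of their joint length, 1 to 1. Of 34027 loci 74.2% overlapped a RefSeq gene that far, and 10.3% after a shift of 50000 bp. Deposited starts equalled RefSeq starts for 352 genes, and for 888 after adding 1, so 1 was added to the starts printed. No sequences were at hand, and none are printed.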

Additional observations from a re-analysis of the deposited data

How the results depend on the processing

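Counts of members, of called members and of adjacent members stayed within 1.5 times those reported under all alternatives run except 1. Rescaling the elevated values so that both groups sum to the same FPKM shifts every gene by 0.17 on the log2 scale. It gave 298 members, 243 of them called and 28 adjacent. The calls are those the authors deposited and were not remade after rescaling. Otherwise members numbered 127 (elevated minimum of 10 FPKM) to 229 (no pseudocount) and called members 115 to 189. At a deposited q under 0.01, 120 of the 171 were called, and 162 had a deposited p under 0.05. The members' median log2 ratio, 1.34 as reported, was 1.23 with a pseudocount of 0.1 FPKM, 1.22 with none, 1.27 with an elevated minimum of 10 FPKM, 1.30 with an ambient minimum of 2 FPKM, 1.33 after rescaling to a median change of 0 or without shared loci, and 1.32 after rescaling to equal sums. Leaving out loci under 500 bp, chosen after seeing the data, left 166 members, 153 of them called. The count of halved genes, 930 as reported, was 890 after rescaling to a median change of 0 and 724 after rescaling to equal sums, both added after seeing the data. No paired analysis was possible because each group has a single pooled FPKM, so the replicate numbers 1 to 4 of the titles could not be used and no library could be left out. Depth is unknown, so what it limits was not assessed.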
